A study of Mus musculus with 6 samples.

Results

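The 9 genes compared here between *Mustn1* KO-first HET and WT mouse soleus are used as markers of resident, alternatively activated macrophages. They are the endocytic receptors *Mrc1*, *Cd163*, *Stab1*, *Lyve1* and *Folr2*, the secreted proteins *F13a1*, *Pf4* and *Gas6*, and the enzyme *Cbr2*. None is exclusive to macrophages, and which cells of the soleus made each of them was not tested. The members were found by their gene symbol, and all 9 were present among the 16180 genes of the authors' normalised table and the 51912 genes of their raw count table. All 9 also passed the filter on low counts, which left 14696 genes for testing. *F13a1* was higher in HET past the threshold, *Lyve1*, *Folr2*, *Pf4*, *Cd163* and *Cbr2* had estimates of 0.99 to 1.63 on the log2 scale that did not pass it, and *Stab1*, *Mrc1* and *Gas6* had estimates of 0.13 to 0.34.

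RNA was taken from the soleus, a calf muscle rich in slow fibers, of 3 HET and 3 WT mice, with 1 library per mouse. All 6 mice were on the C57BL6/N background, 8 weeks old and without treatment, and the WT mice were littermates. HET mice carry 1 KO-first allele of *Mustn1* in the whole body, in which a lacZ trap followed by a neomycin cassette captures the splicing of the first exon, so no cell type is targeted and no loss in macrophages alone is tested. Although the mice are labelled male, *Xist*, the RNA of the inactive X chromosome, had 3858 to 9154 reads per library and the Y gene *Ddx3y* had at most 9.

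Resident macrophages live within tissues for long periods. In skeletal muscle they lie in the connective tissue around fibers and vessels, where they take up debris, modified proteins and dying cells. The term alternatively activated refers to the state that interleukin 4 and interleukin 13 induce through STAT6, which raises endocytic receptors such as *Mrc1*, in contrast to the inflammatory state induced by interferon and bacterial products. None of the 9 genes is exclusive to macrophages. *Lyve1* is also a marker of lymphatic endothelium, *Stab1* is found on sinusoidal and some other endothelial cells, *Pf4* is a product of megakaryocytes and platelets, and *Gas6* is made by fibroblasts, endothelium and smooth muscle.

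The stretch just upstream of the start site is shown for 4 of the genes because it holds the hexamer GAGGAA, the core of the sites bound by PU.1, a transcription factor of the myeloid lineage. The sequences are RefSeq's, on build GRCm38.p6, and each is printed 5′ to 3′ on the strand of its gene and ends before the first base counted for that gene. Capitals mark the hexamer or its complement TTCCTC, and positions are counted back from the RefSeq start site to the first capital.
Mrc1, plus strand of chr2:14229344-14229391, position -35: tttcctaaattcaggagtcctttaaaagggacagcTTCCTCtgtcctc
Pf4, plus strand of chr5:90772387-90772434, position -8: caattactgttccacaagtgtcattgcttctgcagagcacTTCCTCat
F13a1, minus strand of chr13:37050284-37050331, position -66: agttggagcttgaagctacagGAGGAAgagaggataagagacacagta
Stab1, minus strand of chr14:31168645-31168692, position -30: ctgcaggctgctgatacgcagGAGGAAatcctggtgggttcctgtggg

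Of the 9 genes, 8 had an entry in the promoter table, and *Lyve1* was not among them. Within 250 bases before the start, GAGGAA on either strand was present in 5 of these 8 genes (*Mrc1*, *Pf4*, *Cbr2*, *F13a1* and *Stab1*) and in 5 of their 10 listed promoters, against 23.3% of all 32851 promoters. In *Cbr2* the match lies inside the counted exon and is not shown. The hexamer TGCTGA, part of the site of the MAF factors of resident macrophages, was present on either strand in 2 of the 8 genes (*Folr2* and *Stab1*) and in 3 of the 10 promoters, against 16.1% of all promoters. The hexamer GAGGAA was found in *F13a1*, which had the largest log2 fold change of the 9, and also in *Mrc1* and *Stab1*, which had estimates near the low end.

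Libraries held between 26790075 and 50368796 reads on genes, and the 9 genes between 22 reads (*Folr2* in a WT mouse) and 6794 reads (*Gas6* in a WT mouse). Normalised counts are CPM, the counts relative to the library size as scaled by TMM. HET was compared with WT by edgeR's quasi-likelihood test, and adjusted p-values are Benjamini-Hochberg values over all 14696 genes, with a threshold of 0.05. *Mustn1* itself, the targeted gene, had normalised counts of 12.6, 16.8 and 13.1 CPM in the HET mice and 23.1, 29.0 and 30.5 CPM in the WT mice, which gave a log2 fold change of -0.96 (SE 0.15, edgeR adjusted p = 0.0452). In the whole comparison, 21 genes passed the threshold as higher in HET, or 0.143% of those tested, and 1 as lower, or 0.0068%.

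Each of the 9 estimates was above 0, and their median log2 fold change was 1.05, or 2.08-fold, beside -0.02 over all genes tested. One of the 9 passed the threshold, against the 0.143% of all genes. An unadjusted p below 0.05 was found for 7, against 5.76% of all genes tested in this direction. In 7 genes every HET mouse lay above every WT mouse, an arrangement found in 7.55% of all genes tested, and in 2 genes, *Mrc1* and *Gas6*, the genotypes overlapped. With DESeq2, 6 of the 9 passed, namely *F13a1*, *Lyve1*, *Folr2*, *Pf4*, *Cd163* and *Cbr2*, against 1.41% of all genes with an adjusted p. The same 6 passed in edgeR without a filter on low counts, against 1.33%. In bulk tissue, more cells of a type and more RNA per cell cannot be told apart, and this holds for every value given here.

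**Figure D1:**
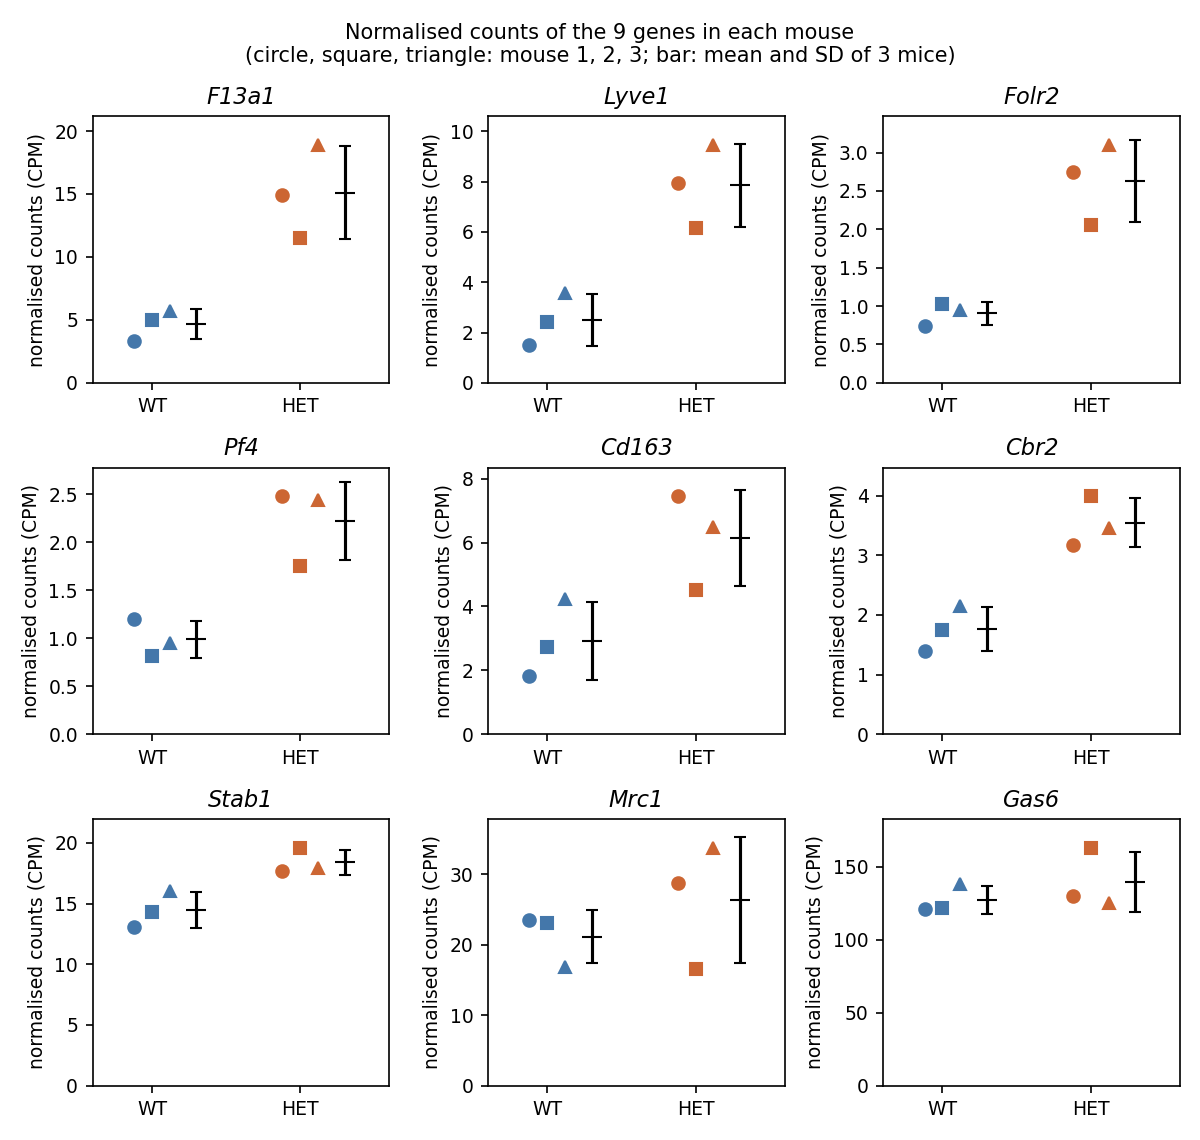
Normalised counts (CPM, vertical axes from 0) of the 9 genes in each of 3 WT (blue) and 3 HET (orange) mice, with the mean and SD of each genotype as bars. In 7 panels all HET points lie above all WT points, and in the panels of *Mrc1* and *Gas6* the genotypes overlap.

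*F13a1* encodes the A subunit of coagulation factor XIII, the transglutaminase that cross-links fibrin and matrix proteins and that macrophages hold inside the cell. The gene (ENSMUSG00000039109) lies on the minus strand of chromosome 13, from 36867178 to 37050244. Its normalised counts were 14.9, 11.5 and 18.9 CPM in the HET mice and 3.34, 4.97 and 5.67 CPM in the WT mice. The lowest HET mouse, at 11.5 CPM, lay well above the highest WT mouse, at 5.67 CPM. *F13a1* rose 3.22-fold (log2 fold change 1.69, SE 0.23, edgeR adjusted p = 0.0425) and ranked 8th by p among all genes tested. The adjusted p is close to the threshold, and the call was lost when HET mouse 1, HET mouse 3, WT mouse 1 or WT mouse 2 was left out, with log2 fold changes of 1.5 to 1.87 over all 6 omissions. With any of those 4 mice left out no gene of the whole table passed in edgeR. In these fits 6 or 7 of the 9 genes kept an unadjusted p below 0.05, and the share of all genes there was not counted. *F13a1* also missed the threshold with limma-voom, with non-robust dispersion and with a GC trend removed. Of the other transglutaminase, fibrinogen and antiplasmin genes listed beside it, only *Tgm2*, tissue transglutaminase, had enough reads to test among 7, with a log2 fold change of 0.09 (SE 0.10).

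*Lyve1* encodes a receptor for hyaluronan. The gene (ENSMUSG00000030787) lies on the minus strand of chromosome 7, from 110850607 to 110863239. The HET mice had 7.93, 6.15 and 9.46 CPM and the WT mice 1.51, 2.41 and 3.59 CPM, without overlap. The log2 fold change was 1.63 (SE 0.28), and the edgeR adjusted p of 0.0785 did not pass the threshold. Because *Lyve1* is shared with lymphatic endothelium, the markers of that cell type are given beside it. Of 7 lymphatic markers 6 were tested, with a median log2 fold change of 0.21, and their summed level was 77.7 to 96.4 TPM (reads per length of the gene, scaled to the same total in each library) in the HET mice and 68.5 to 82.3 TPM in the WT mice. Most of this summed level came from *Tbx1*, with a mean of 50.6 TPM in HET and 43.0 TPM in WT, and from *Prox1*, with 17.1 and 17.3 TPM. The sum thus mostly follows *Tbx1* and *Prox1*, and the part of lymphatic endothelium in it was not tested. *Prox1*, the transcription factor that defines lymphatic endothelium and is also made by slow muscle fibers, had a log2 fold change of -0.14 (SE 0.12). *Mmrn1*, a secreted protein of lymphatic endothelium and platelets, was the 1 lymphatic marker past the threshold, at 2.0 (SE 0.31, edgeR adjusted p = 0.0473). It passed in 10 of 20 alternatives, not in limma-voom, and in only 1 of the fits with a single mouse left out. Its estimates there ran from 1.74 to 2.43. *Ccl21a* had 0 reads in every library.

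The 7 hyaluronan genes listed beside *Lyve1* had a median log2 fold change of 0.29. They ranged from -0.17 for *Stab2*, the scavenger receptor related to *Stab1*, to 2.27 for the hyaluronan synthase *Has1*, which rested on 2 to 47 reads per library. None passed the threshold in edgeR, DESeq2 or limma-voom, and 1 had an unadjusted p below 0.05.

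*Folr2* encodes folate receptor beta, the folate receptor of the macrophage lineage. The gene (ENSMUSG00000032725) lies on the minus strand of chromosome 7, from 101839988 to 101857194. It had 2.75, 2.05 and 3.10 CPM in the HET mice and 0.736, 1.03 and 0.952 CPM in the WT mice. The genotypes did not overlap, and the WT values rest on 22 to 47 reads. The log2 fold change was 1.54 (SE 0.26, edgeR adjusted p = 0.0655). Among 9 other genes of folate uptake and metabolism the median was -0.06, and the highest estimate was 1.33 for *Folr1*, folate receptor alpha, which had 3 to 21 reads per library. None of the 9 passed in edgeR, DESeq2 or limma-voom, and 1 had an unadjusted p below 0.05.

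*Cd163* encodes the scavenger receptor that clears complexes of hemoglobin and haptoglobin. The gene (ENSMUSG00000008845) lies on the plus strand of chromosome 6, from 124304656 to 124330527. The HET mice had 7.45, 4.51 and 6.49 CPM and the WT mice 1.81, 2.73 and 4.23 CPM. The lowest HET mouse and the highest WT mouse were close, and the log2 fold change of 1.05 (SE 0.30) had an edgeR adjusted p of 0.277. Of 12 genes of hemoglobin and heme handling 11 were tested, with a median of 0.13, from -0.15 for the transferrin receptor *Tfrc* to 1.08 for haptoglobin, *Hp* (SE 0.75), which was 0.62 without HET mouse 2 and 2.09 without WT mouse 3. *Hmox1*, the heme oxygenase downstream of this uptake, had 0.13 (SE 0.18). None passed in edgeR, 1 had an unadjusted p below 0.05, and that gene, *Lrp1*, the receptor for hemopexin and many other ligands, passed in DESeq2 but not in limma-voom.

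*Mrc1* encodes CD206, the mannose receptor and the most used marker of alternative activation. The gene (ENSMUSG00000026712) lies on the plus strand of chromosome 2, from 14229392 to 14332057, and holds the microRNA gene *Mir511* on the same strand. Its normalised counts were 28.8, 16.5 and 33.8 CPM in the HET mice and 23.5, 23.1 and 16.8 CPM in the WT mice. HET mouse 2 lay below all 3 WT mice and the other HET mice lay above them. The log2 fold change was 0.33 (SE 0.26, edgeR adjusted p = 0.872). The estimate was 0.11 to 0.59 with single mice left out. The other members of the mannose receptor family had log2 fold changes of 0.80 (SE 0.15, edgeR adjusted p = 0.101) for *Mrc2*, the collagen receptor of fibroblasts and other stromal cells, 0.06 (SE 0.22) for the phospholipase A2 receptor *Pla2r1* and -0.10 (SE 0.38) for *Ly75*, DEC-205 of dendritic cells.

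*Stab1* encodes stabilin-1, which takes up modified lipoproteins and matrix fragments. The gene (ENSMUSG00000042286) lies on the minus strand of chromosome 14, from 31139013 to 31168641. The HET mice had 17.7, 19.6 and 17.9 CPM and the WT mice 13.1, 14.3 and 16.0 CPM, so the genotypes were apart by a narrow gap. The log2 fold change was 0.34 (SE 0.11, edgeR adjusted p = 0.385). *Stab1* is the 1 member on the chromosome of the targeted gene, 257.4 kb from *Mustn1*. Of 14 other tested genes between *Mustn1* and *Stab1* or within 100 kb of them, 4 had estimates above 0 and 10 below, from -0.31 to 0.12. None of the 14 passed in edgeR, DESeq2 or limma-voom, and 1, *Stimate*, had an unadjusted p below 0.05.

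*Pf4* encodes platelet factor 4, a chemokine of the CXC family. The gene (ENSMUSG00000029373) lies on the plus strand of chromosome 5, from 90772435 to 90773383. The HET mice had 2.48, 1.75 and 2.44 CPM and the WT mice 1.20, 0.816 and 0.952 CPM, without overlap, on 23 to 107 reads. The log2 fold change was 1.17 (SE 0.26, edgeR adjusted p = 0.131). Of 12 platelet markers, 10 had too few reads to test, with at most 18 reads in any library. The other 2 had log2 fold changes of 0.54 (SE 0.28) for *Itga2b*, the integrin of platelets, and 0.23 (SE 0.20) for *Alox12*. The summed level of all 12 was 9.34 to 12.2 TPM in the HET mice and 6.47 to 9.51 TPM in the WT mice, none was at 0 reads in all libraries, and *Ppbp*, another chemokine of platelets, had 2 to 18 reads per library in HET and 5 to 8 in WT. Of 4 red blood cell genes tested all had estimates below 0, with a median of -0.30. The part of blood left in the muscle in these values was not tested. Of 8 other genes of CXC chemokines and their receptor, 4 were tested, with a median of 0.21 and a range from 0.07 for *Cxcl12* to 0.52 for *Cxcl14*. None of the 4 passed in edgeR, DESeq2 or limma-voom, and 1 had an unadjusted p below 0.05.

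*Cbr2* encodes a carbonyl reductase known from lung and from macrophages of resting tissue. The gene (ENSMUSG00000025150) lies on the minus strand of chromosome 11, from 120729489 to 120732114. The HET mice had 3.18, 3.99 and 3.46 CPM and the WT mice 1.40, 1.74 and 2.15 CPM, without overlap. The log2 fold change was 0.99 (SE 0.22, edgeR adjusted p = 0.131). The related enzymes had -0.08 (SE 0.12) for *Cbr1*, 0.82 (SE 0.29) for *Cbr3*, -0.19 (SE 0.11) for *Cbr4* and -0.13 (SE 0.16) for *Dcxr*. None of the 4 passed in edgeR, DESeq2 or limma-voom, and *Cbr3* alone had an unadjusted p below 0.05.

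*Gas6* encodes the vitamin K-dependent ligand that joins dying cells to the TAM receptors Tyro3, Axl and Mertk. The gene (ENSMUSG00000031451) lies on the minus strand of chromosome 8, from 13465374 to 13494490. It had 130.0, 163 and 125 CPM in the HET mice and 121, 122 and 138 CPM in the WT mice. The genotypes overlapped, with HET mouse 2 above the rest, and the log2 fold change was 0.13 (SE 0.11, edgeR adjusted p = 0.884). Among its receptors, *Axl* had 0.69 (SE 0.24), *Tyro3* 0.43 (SE 0.28) and *Mertk*, the receptor most used by macrophages for the uptake of dying cells, -0.10 (SE 0.19). *Pros1*, the other ligand, had 0.15 (SE 0.13). The enzymes of the vitamin K cycle, on which both ligands depend, had 0.18 (SE 0.12) for *Ggcx* and 0.09 (SE 0.23) for *Vkorc1*. None of these 6 passed in edgeR. *Axl*, which fibroblasts also make, had an unadjusted p below 0.05 and passed in DESeq2 but not in limma-voom.

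**Figure D2:**
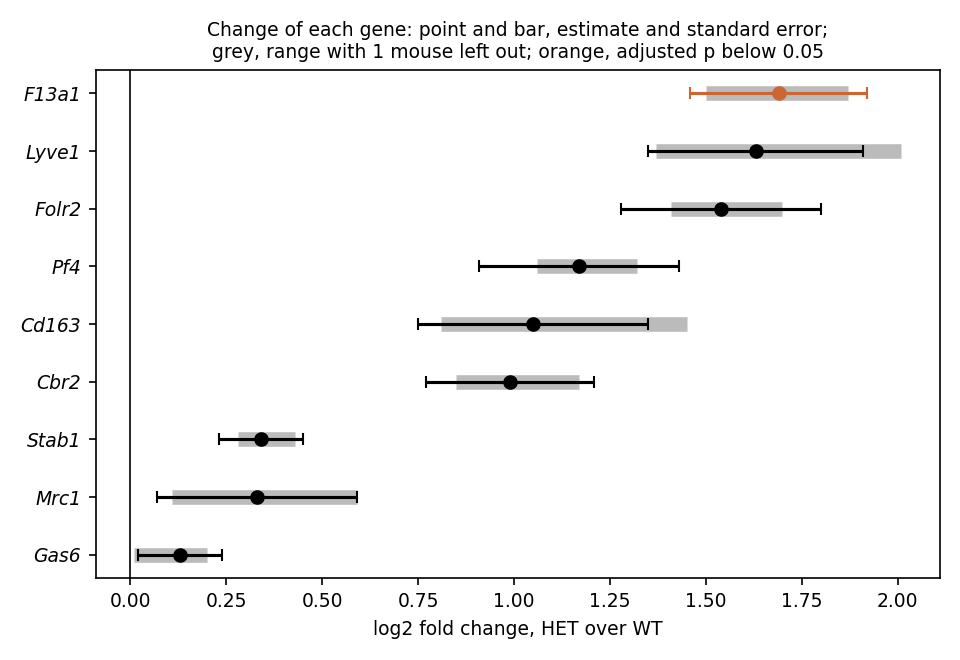
Log2 fold change of HET over WT for the 9 genes (horizontal axis), with the standard error as a bar and, in grey, the range of estimates when 1 of the 6 mice was left out. *F13a1*, in orange, passed the threshold, and every grey range stays above 0, down to 0.01 for *Gas6*.

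Levels were compared between genes per length, in TPM computed from the raw counts. In WT muscle *Gas6* stood at 136 ± 13 TPM (SD, n = 3) and *Mrc1* at 8.99 ± 1.44 TPM. The other 7 lay between 3.82 ± 0.476 TPM for *Stab1* and 1.46 ± 0.648 TPM for *Cd163*, in the order *Stab1*, *Pf4*, *Cbr2*, *F13a1*, *Lyve1*, *Folr2* and *Cd163*. Neighbours in this order overlapped between mice, except *Gas6* with *Mrc1* and *Mrc1* with *Stab1*. In HET muscle *Gas6* was again first with 161 ± 20.7 TPM and *Mrc1* second with 12.3 ± 4.42 TPM. *F13a1* came next with 11.4 ± 3.12 TPM, followed by *Pf4*, *Lyve1*, *Cbr2*, *Stab1*, *Folr2* and, at 3.34 ± 0.839 TPM, *Cd163*. Here *Mrc1* and *F13a1* overlapped, and only *Gas6* with *Mrc1* and *Cbr2* with *Stab1* were apart. By mean level *F13a1* thus held place 6 of the 9 in WT and place 3 in HET, and *Stab1* place 3 in WT and place 7 in HET.

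The mice did not rank alike in all 9 genes. Of the HET mice, mouse 2 had the lowest normalised count in 6 genes (*Mrc1*, *Cd163*, *F13a1*, *Pf4*, *Lyve1* and *Folr2*) and the highest in the other 3 (*Cbr2*, *Stab1* and *Gas6*). HET mouse 3 was highest in 4 and HET mouse 1 in 2. Of the WT mice, mouse 1 was lowest in 7 genes and highest in *Mrc1* and *Pf4*, and mouse 3 was highest in 6. HET mouse 3 also held more inflammatory transcripts than the other mice. The summed level of 15 monocyte and inflammatory genes was 26.0 TPM there and 5.12 to 7.53 TPM in the other 5 mice, with 79 reads on *Il1b* against 0 to 13. Without HET mouse 3 the median log2 fold change of the 9 genes was 1.02, and in edgeR 0 passed the threshold and 7 had an unadjusted p below 0.05. In that fit no gene of the whole table passed, and the share of all genes at an unadjusted p below 0.05 was not counted.

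To see how the genes stood relative to the macrophage lineage as a whole, 16 pan-macrophage genes were set beside them. All 16 were tested and had estimates above 0, with a median of 1.35, from 0.33 for *Fcer1g* to 2.14 (SE 0.62) for *Fcgr1*. *Fcgr1* had 13, 17 and 56 reads in the HET mice and 2, 9 and 7 in the WT mice, and its estimate was 1.48 without HET mouse 3 and 2.74 without WT mouse 2. The 6 past the threshold were *Csf1r*, the receptor for the growth factor of macrophages, *Adgre1* (F4/80), *Lyz2*, *C1qa*, *C1qb* and *Laptm5*. In DESeq2 8 of the 16 passed, and in limma-voom only *C1qa* and *Lyz2*. The summed level was 147 to 195 TPM in the HET mice and 53.6 to 67.9 TPM in the WT mice for all 16 genes. The summed level of the 9 genes was 213 to 235 TPM in HET and 153 to 182 TPM in WT, most of it from *Gas6*.

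*Csf1r* had 12.7, 11.1 and 13.4 CPM in the HET mice and 3.38, 4.54 and 6.16 CPM in the WT mice, with a log2 fold change of 1.39 (SE 0.20, edgeR adjusted p = 0.0452). It was used as the reference in a ratio within each mouse and was itself among the genes past the threshold. On the log2 scale the ratio of *F13a1* to *Csf1r* was 0.26 ± 0.23 (SD, n = 3) in HET and 0.00 ± 0.12 in WT. *Lyve1* had -0.67 ± 0.18 and -0.94 ± 0.19, and *Folr2* -2.23 ± 0.17 and -2.28 ± 0.30. For these 3 genes and for *Cd163*, *Pf4* and *Cbr2* the genotypes overlapped, with differences of HET minus WT between -0.43 for *Cbr2* and 0.26 for *F13a1* and *Lyve1*.

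For *Mrc1*, *Stab1* and *Gas6* the ratio to *Csf1r* was lower in HET, although their normalised counts gave estimates above 0. The log2 ratio of *Mrc1* was 1.18, 0.57 and 1.34 in the HET mice and 2.78, 2.33 and 1.44 in the WT mice, a difference of -1.16. That of *Stab1* was 0.47, 0.81 and 0.42 in HET and 1.94, 1.64 and 1.37 in WT, a difference of -1.08. That of *Gas6* was 3.35, 3.86 and 3.22 in HET and 5.14, 4.74 and 4.47 in WT, a difference of -1.31. In all 3 genes every HET mouse lay below every WT mouse, and the share of all genes with this arrangement of the ratio was not counted. These ratios carry the log2 fold change of 1.39 of *Csf1r* itself, so a gene with an estimate near 0 has a lower ratio in HET by construction, and they are given as a description without a test.

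**Figure D3:**
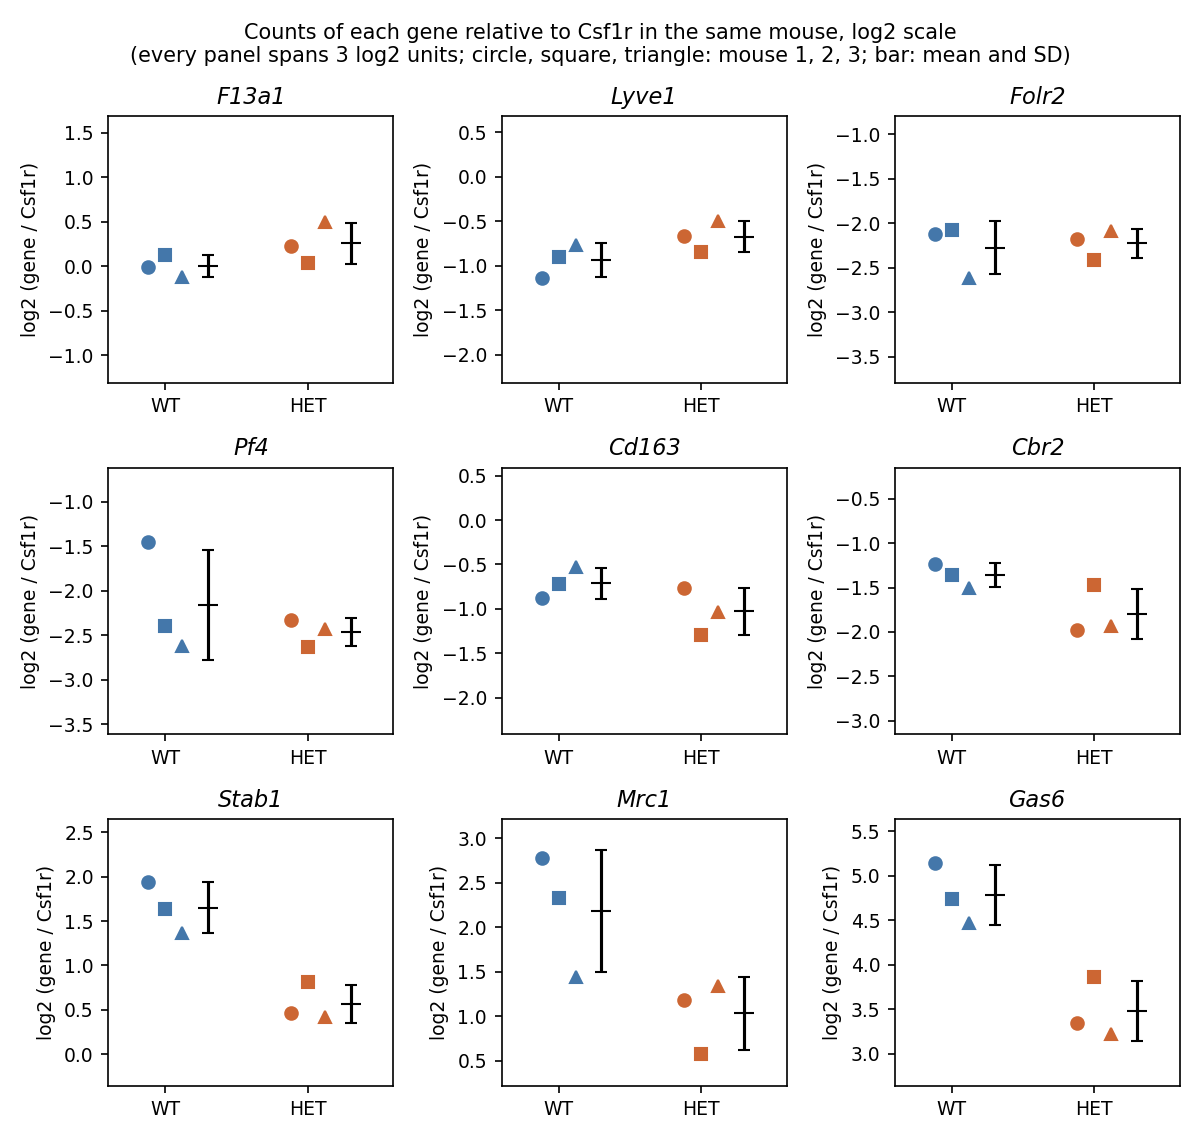
Log2 ratio of each of the 9 genes to *Csf1r* in the same mouse (vertical axes, each spanning 3 log2 units), for 3 WT (blue) and 3 HET (orange) mice with mean and SD. In the panels of *Stab1*, *Mrc1* and *Gas6* all HET points lie below all WT points, and in the other 6 panels the genotypes overlap.

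Of 16 other genes of resident macrophages 10 were tested, with a median of 0.41 beside 1.35 for the pan-macrophage genes, from -0.14 for *Maf*, a transcription factor of resident macrophages that other cells of muscle also make, to 1.71 (SE 0.72) for the scavenger receptor *Msr1*. *Msr1* had 28, 6 and 92 reads in the HET mice and 11, 13 and 9 in the WT mice, and its estimate was 0.64 without HET mouse 3. None passed in edgeR or limma-voom, 1 passed in DESeq2 (*Dab2*, an endocytic adaptor) and 4 had an unadjusted p below 0.05. *Timd4*, the receptor for phosphatidylserine on self-renewing resident macrophages, had 14 to 29 reads in the HET mice and 5 to 22 in the WT mice. Its normalised counts were 0.694, 0.522 and 0.661 CPM in HET and 0.167, 0.284 and 0.446 CPM in WT, with a log2 fold change of 1.01 (SE 0.42).

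Of 19 genes of alternative activation 13 were tested, with a median of 0.82. They ranged from -0.19 for *Pparg*, a nuclear receptor that fat cells also make, to 2.38 for *Retnla*, a secreted product of this state. *Retnla* had 12.4, 18.2 and 5.88 CPM in the HET mice and 2.94, 2.84 and 1.36 CPM in the WT mice (SE 0.48, edgeR adjusted p = 0.178). None passed in edgeR or limma-voom, 9 had an unadjusted p below 0.05, and 4 passed in DESeq2 (*Retnla*, *Mgl2*, *Clec10a* and *Il4ra*). *Stat6*, which carries the interleukin 4 signal, had 0.08 (SE 0.11). *Arg1*, a classical marker of the state, had too few reads to test.

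Of the 15 monocyte and inflammatory genes 4 were tested, with a median of 1.36, from 0.02 for *Nos2*, the enzyme of the inflammatory state, to 1.85 for the co-stimulator *Cd86*. Of 7 dendritic cell genes 3 were tested, with a median of 1.20, from -0.25 for *Zbtb46* to 2.89 (SE 0.69) for *Cd209a*. *Cd209a* had 18 to 33 reads in the HET mice and 0, 2 and 9 in the WT mice, and its estimate was 4.29 without WT mouse 3. None of either list passed in edgeR or limma-voom, while *Ccr2*, *Cd86* and *Cd209a* passed in DESeq2, and 3 and 2 genes had an unadjusted p below 0.05.

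The cells that share *Gas6* and *Stab1* with macrophages gave mixed values. All 10 fibroblast genes had estimates above 0 and an unadjusted p below 0.05, with a median of 0.72, from 0.43 for *Cd34* to 1.23 for *Col1a1*, and *Pi16*, a marker of fibroblasts around vessels, passed the threshold at 1.06 (SE 0.15, edgeR adjusted p = 0.0452). In DESeq2 5 of the 10 passed, *Pi16* among them, and in limma-voom 0. The summed level of the 10 was 862 to 1300.0 TPM in the HET mice and 396 to 608 TPM in the WT mice. The 10 genes of blood vessel endothelium had a median of -0.01, from -0.18 for *Cdh5* to 0.22 for *Cldn5*, and the 6 of vascular smooth muscle 0.07, from -0.08 for *Lmod1* to 0.60 (SE 0.60) for *Cnn1*, which ran from 0.20 to 1.03 with single mice left out. The 10 muscle fiber genes had a median of -0.06, from -0.17 for *Tnnc1* to 0.14 for *Myh2*. No gene of the last 3 lists passed in edgeR, DESeq2 or limma-voom, and 0 had an unadjusted p below 0.05. The part of fibroblasts in the values of the 9 genes was not tested.

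**Figure D4:**
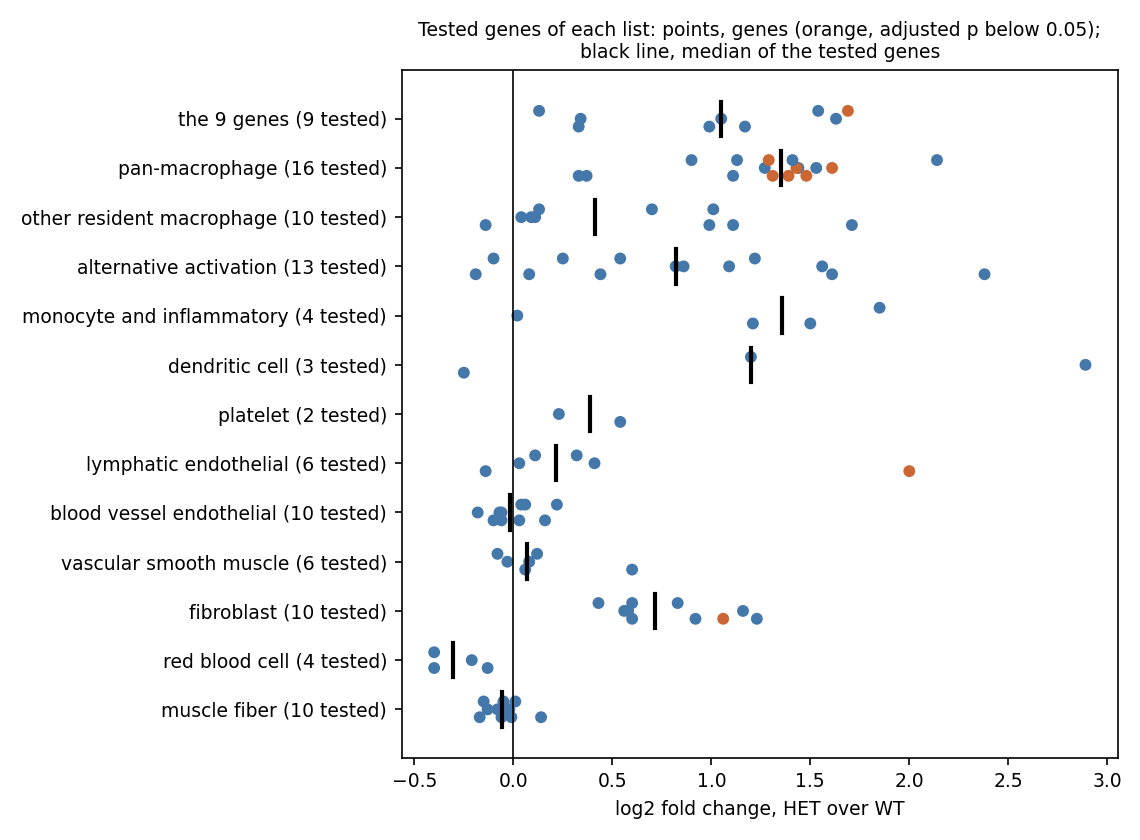
Log2 fold change of HET over WT (horizontal axis) for every tested gene of the 9 genes and of 12 lists of cell type and activation markers, 1 point per gene, with the median of each list as a black line and genes past the threshold in orange. The medians are 1.05 for the 9 genes, 1.35 for pan-macrophage, 0.41 for other resident macrophage and 0.82 for alternative activation genes. They are 1.36 for monocyte and inflammatory (4 tested), 1.20 for dendritic cell (3 tested), 0.38 for platelet and 0.21 for lymphatic endothelial genes. The rest are 0.72 for fibroblast, 0.07 for vascular smooth muscle, -0.01 for blood vessel endothelial, -0.30 for red blood cell and -0.06 for muscle fiber genes.

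The genes whose normalised counts lay closest to the median profile of the 9 over the 6 mice were sought among all others tested. The measure was the root mean square difference, in log2 units, from the median profile of the 9 genes, each gene centred on its mean. That profile was 0.73, 0.30 and 0.66 in the HET mice and -0.80, -0.55 and -0.25 in the WT mice. It is mostly the difference between genotypes, so genes with a similar log2 fold change come out close. The 5 closest were *F630028O10Rik* at 0.105, *Adgrd1* at 0.113, *Pi16* at 0.127, *Arhgap30* at 0.143 and *Itgb3* at 0.156. These 5 were picked as the smallest distances of the search, and the 9 genes were not. Among the 9 genes themselves the distance from this profile ran from 0.208 for *Cd163* to 0.560 for *Gas6*, with *Stab1* at 0.423. *Folr2* and *Cbr2* were close to it, at 0.236 and 0.234, and *Mrc1*, at 0.551, was about as far as *Gas6*.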

How the data were processed

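RNA-seq libraries of 3 HET and 3 WT soleus muscles were compared, grouped by the genotype in the sample labels. The authors aligned single-end reads to GRCm38.p6 with STAR 2.7.3a and made the deposited raw counts per gene with featureCounts 2.0.3, counting by strand. The authors' normalised signal is the raw count divided by 1 size factor per library, between 0.7734 and 1.417. A further deposited file, with the authors' own fold changes and p-values from DESeq2, was not used. No column of values per sample was left without a sample.

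Counts were analysed in R 4.3.3 with edgeR 4.0.16 (TMM, filterByExpr with a minimum count of 10, robust quasi-likelihood test, two-sided), limma 3.58.1 and DESeq2 1.42.0. The SE is the size of the log2 fold change over the square root of F. The biological coefficient of variation was 0.143. Log2 CPM for ratios and profiles used a prior count of 2. In all, 20 alternatives were run, including each mouse left out. Steps were tested on simulated data. Of the 51912 genes 51633 were named in GENCODE M21.

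The 9 genes and the 20 gene lists beside them were chosen with earlier results of these data known. Named singly were the 9 genes, *Mustn1*, list genes past the threshold or at the ends of their range, the tested genes of the mannose receptor, Gas6 and carbonyl reductase lists, and the 5 closest profiles. The low end of the folate list is not reported here. *Prox1*, *Tbx1*, *Hmox1*, *Ppbp*, *Il1b*, *Timd4*, *Stat6*, *Arg1*, *Ccl21a* and the genes passed by DESeq2 were added after their values were seen. Replicates are separate mice.

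Replicate numbers 1 to 3 occur in both genotypes. The deviations of same-numbered mice from their genotype means correlated at 0.203, -0.00578 and -0.0349, so the numbers were not taken as pairs.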

Additional observations from a re-analysis of the deposited data

How the results depend on the processing

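The median log2 fold change of the 9 genes lay between 0.85 and 1.24 over all 20 alternatives, and every one of the 9 stayed above 0. The number past the threshold depended on the setting. It was 1 as reported, 2 with library size alone as the scaling, 6 without a filter on low counts, 6 with DESeq2, 0 with limma-voom, 0 with non-robust dispersion, and 0 with a GC trend removed. The last 3 each left 7 of the 9 at an unadjusted p below 0.05. Of all genes, 0.143% passed as higher in HET as reported and 1.33% without the filter. With DESeq2 it was 1.41% of those with an adjusted p, and with library size alone 27 of 14696 genes. With single mice left out, the number of the 9 past the threshold ran from 0 to 3. The 3 came without WT mouse 3, where 77 of 14838 genes passed as higher. Leaving out HET mouse 1, HET mouse 3, WT mouse 1 or WT mouse 2 gave 0, with 6 or 7 at an unadjusted p below 0.05. The share of all genes at an unadjusted p below 0.05 and higher in HET was counted in the fit as reported alone, at 5.76%. It was not counted in these other settings.

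With the replicate number as a block, 3 of the 9 passed (*F13a1*, *Lyve1* and *Folr2*), 3 with the block and a length trend removed, and 2 with the block and a GC trend removed. The block raised the genes past the threshold from 21 to 114 higher and from 1 to 2 lower. HET mouse 1 correlated best with its own number, and mice 2 and 3 did not.

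Genes called higher over the whole table numbered 386 without a filter, 204 with DESeq2, 3 with limma-voom, 6 with non-robust dispersion, 9 with limma-trend on the normalised signal, 6 with a GC trend removed, 140 and 94 with the block and a length or GC trend removed, and 0 to 77 with single mice left out. The cause of these shifts was not tested.

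Some list genes near 0 changed sign. *Nos2* was -0.01 with limma-trend and -0.01 with the block and GC trend removed. With single mice left out, estimates ran from -0.35 to 0.01 for *Maf*, -0.38 to 0.08 for *Pparg*, -0.20 to 0.19 for *Nos2*, -0.41 to 0.08 for *Hba-a1*, -0.09 to 0.40 for *Cldn5*, -0.39 to 0.08 for *Lmod1*, -0.22 to 0.06 for *Ly75*, -0.04 to 0.29 for *Cxcl12*, -0.40 to 0.27 for *Stab2*, -0.28 to 0.05 for *Mertk* and -0.09 to 0.23 for *Pla2r1*. *Folr2* and *Pf4* had the fewest reads, 22 to 136 and 23 to 107, and an SE of 0.26 each, the same as *Mrc1* on 444 to 1485 reads.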
